A study of Mus musculus with 4 samples.

Results

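The 44 genes described here encode the protein machinery of mitosis and chromosome segregation: cyclin-dependent kinase 1 and its partners, the mitotic kinases, the spindle assembly checkpoint, the centromere and kinetochore, condensin I, the spindle and cytokinesis. They were chosen by gene symbol, without kinesins, and 44 of 44 were found among the 17194 symbols of the count table. The study sequenced polyadenylated RNA from primary mouse bone marrow-derived macrophages on day 2 of treatment with RANKL, the cytokine that turns these precursors into osteoclasts. The siHells group had 2 libraries from cells given an siRNA against Hells, a chromatin remodelling ATPase of the SNF2 family, and the siControl group had 2 libraries from cells given a control siRNA. Both groups had RANKL for 2 days. The sources used here do not name the mouse strain, the age of the animals or whether the libraries of a group came from separate animals or cultures. P-values therefore describe the spread between these 4 libraries alone, and that spread may be technical.

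As background, a cell enters mitosis when Cdk1 bound to cyclin B is activated. Condensin then compacts the chromosomes, and kinetochores built on centromeric chromatin attach them to the spindle. The checkpoint holds back the anaphase-promoting complex (APC/C) until every chromosome is attached. APC/C with Cdc20 then marks cyclin B and securin for destruction, separase cuts cohesin, and the cell divides. Transcripts of most of these proteins accumulate in G2 and M phase and are low in resting cells. Osteoclast precursors divide before they leave the cell cycle and fuse.

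Hells itself had 15.2 and 14.6 CPM in the siHells libraries, against 29.3 and 29.995 CPM in the siControl libraries, where CPM is the read count relative to library size, with library sizes scaled by TMM. The depleted cells thus kept 50.3% of the siControl transcript level (log2 fold change -0.99, SE 0.068, edgeR quasi-likelihood adjusted p = 5.96e-09). Total counts were 55642819 and 55012697 in siHells and 53502523 and 48873635 in siControl, and 15651 genes passed the low-count filter, the 44 mitosis genes among them. Markers of the labelled cell type were present, with 10 of 10 macrophage markers in the table and a summed level of 24377 and 23685 CPM in siHells against 16045 and 16159 CPM in siControl. Of these, 8 were higher and 2 lower in siHells, Cd68 (log2 fold change -0.28) and Spi1 (-0.38). Most of the sum was Lyz2, with 17576 and 16992 CPM in siHells and 11297 and 11396 CPM in siControl. The summed level of 10 osteoclast markers was 1436 and 1397 CPM in siHells against 8662 and 8726 CPM in siControl, with 10 of 10 lower. Their part in the results was not tested.

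Mitosis genes were lower as a group after Hells depletion. Of the 44 genes, 41 fell, 1 rose and 2 did not pass an adjusted p of 0.05, while 29.5% of all genes tested fell, 29.0% rose and 58.5% passed in either direction. The median log2 fold change was -0.64, against -0.0043 over all genes tested, with a lower quartile of -0.73 and an upper quartile of -0.46. A fall of at least 1.5-fold was called for 24 of the 44, where 11.9% of all genes had one. A fall of at least 2-fold was called for 1 of 44 genes, Espl1, where the share over all genes was 5.52%. Ccnb1 lay near that limit, with a log2 fold change of -0.99, and passed it with upper-quartile scaling (-1.02). The change was therefore broad and moderate in size: 31 of the 44 genes lay within 0.2 of the group's median on the log2 scale. Tested against a change of 1.5-fold rather than of 0, 12 of the 44 genes were lower and 0 higher, beside 7.0% of all genes lower.

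**Figure D1:**
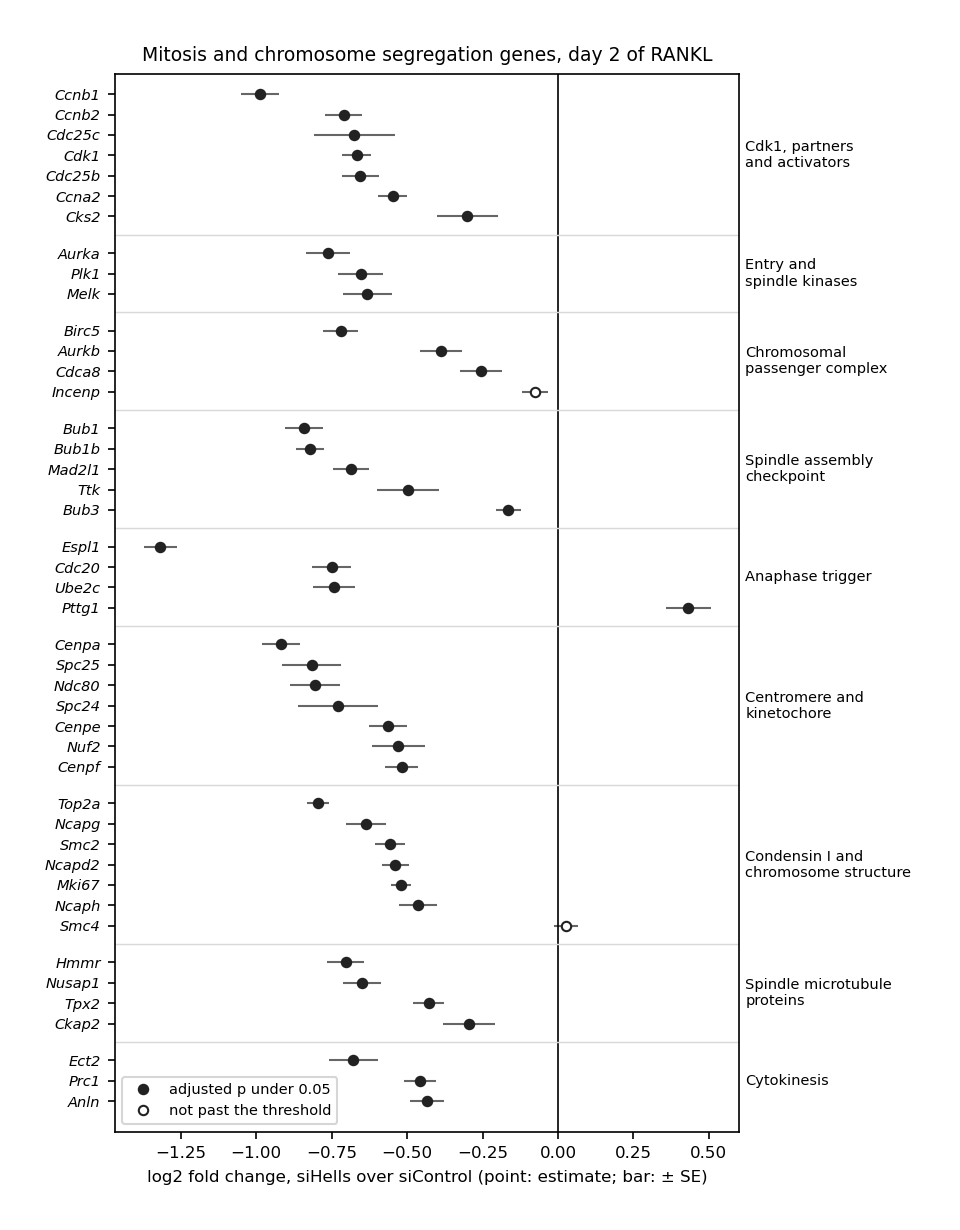
Log2 fold change of each gene, siHells over siControl, by role, with the standard error of the quasi-likelihood fit as bar (2 libraries a group); filled points passed an adjusted p of 0.05 and open points did not. The points run from Espl1 at -1.32 to Pttg1 at 0.43, and the open points are Incenp at -0.08 and Smc4 at 0.03.

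Summed over the 44 genes, the level was 1538 and 1516 CPM in the siHells libraries and 2204 and 2248 CPM in the siControl libraries. The siHells mean was 68.6% of the siControl mean. The 44 genes held 0.1498% and 0.148% of all counts in siHells, against 0.226% and 0.230% in siControl. Mki67 and Top2a together made up 20.5% and 20.3% of these counts in siHells and 21.8% in each siControl library, and without them the siHells sum was 69.9% of the siControl sum. Both siHells libraries lay below both siControl libraries for 42 genes and above them for 1, and Smc4 was the gene whose groups overlapped. Over all genes tested, 39.4% had both siHells libraries below and 39.1% had them above. In these bulk samples, fewer cycling cells and less of each transcript per cycling cell cannot be told apart.

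**Figure D2:**
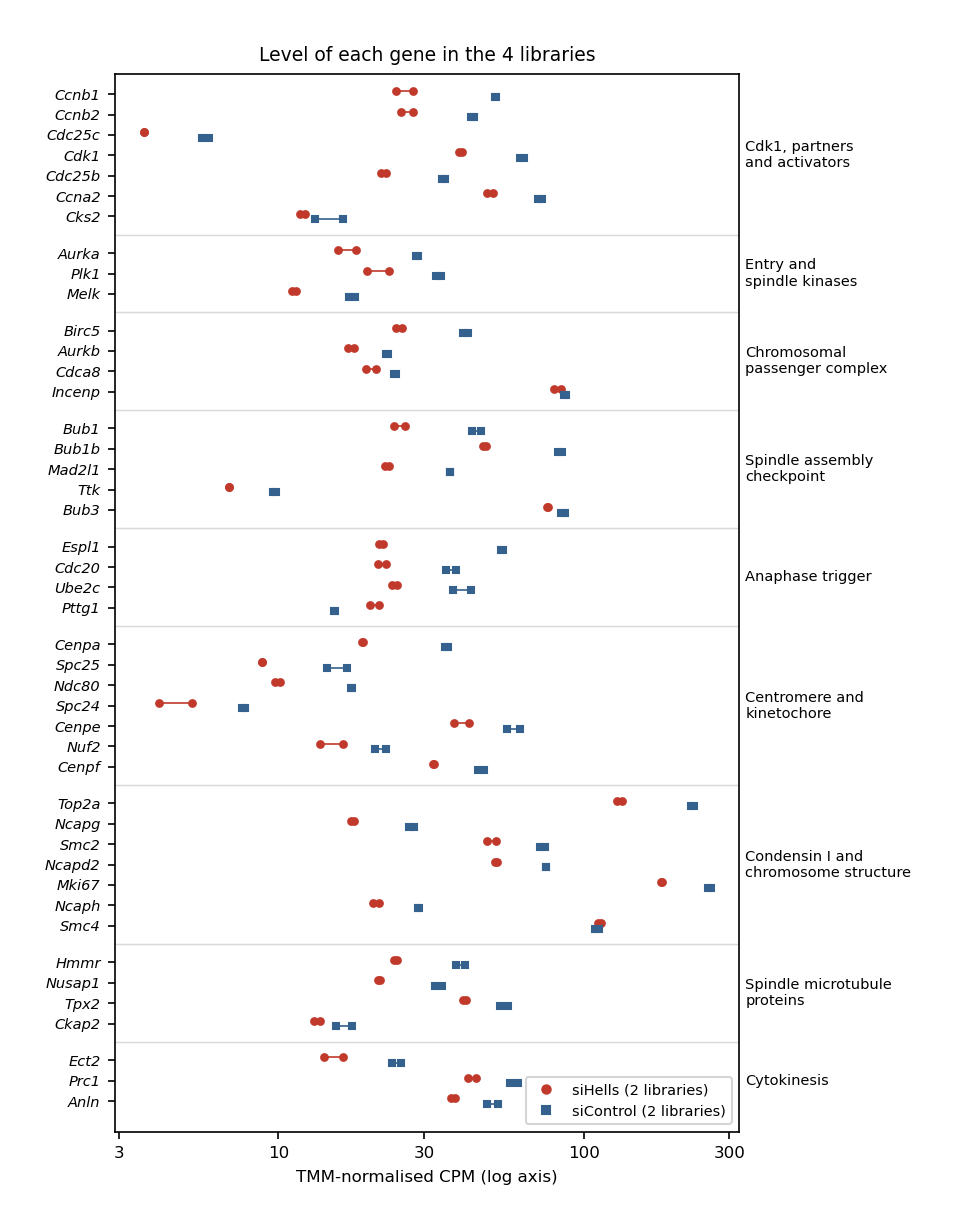
TMM-normalised CPM (log axis) of each gene in the 2 siHells libraries (circles) and the 2 siControl libraries (squares), with a line joining the libraries of a group. The circles lie left of the squares in 42 of 44 genes, overlap them in Smc4 and lie right of them in Pttg1.

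**Figure D3:**
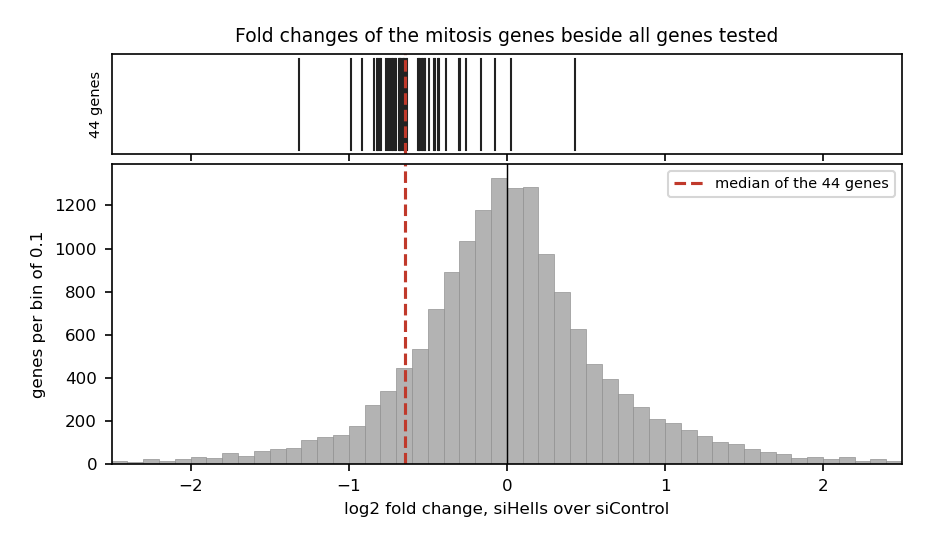
Log2 fold changes of the 44 genes (upper panel, 1 line a gene) above the distribution over all 15651 genes tested (lower panel, genes per bin of 0.1), drawn between -2.5 and 2.5. The 235 genes with larger changes lie outside the drawn range, and the dashed line marks the median of the 44 genes at -0.64, against -0.0043 over all genes.

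Many mitotic promoters are known to carry a cell cycle genes homology region, read as TTTGAA or TTCGAA, close to CCAAT boxes, which NF-Y binds. The windows searched ran from 250 bases before to 50 bases after the gene start, in RefSeq's annotation of GRCm38.p6, and 37 of the 44 genes had an entry. The sequence TTTGAA or TTCGAA, on either strand, was in the window of 27 of these 37 genes (73.0%), against 21.7% of 27025 genes with a window. CCAAT, on either strand, was in 28 (75.7%) against 41.1%, and at least 2 matches of CCAAT were in 19 (51.4%) against 13.3%. Both kinds of letters were in 25 of 37 (67.6%) against 8.61% of the 27025 genes, which were not limited to the genes tested for expression. A gene with several annotated starts counted as holding a motif when any of its windows did. The 27 genes with TTTGAA or TTCGAA had a median of -0.67 in log2 fold change, and the 10 without it a median of -0.60. The ranges overlapped, from -1.32 to -0.16 with these letters and from -0.99 to 0.43 without them. Ccna2, Cdc25c, Aurkb, Incenp, Spc24, Smc4 and Tpx2 had no entry. A match is a description of letters and not a binding site.

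The windows shown here were picked by fold change. They are those of the gene with the largest fall (Espl1) and of the next largest (Ccnb1). The others are the gene with the smallest fall that passed the threshold (Bub3, chosen after its value was seen) and the gene that rose (Pttg1). Capitals mark TTTGAA and TTCGAA and CCAAT or their reverse complements, and the gene start is the base after the 250th.
Espl1, chr15:102296043-102296342, plus strand: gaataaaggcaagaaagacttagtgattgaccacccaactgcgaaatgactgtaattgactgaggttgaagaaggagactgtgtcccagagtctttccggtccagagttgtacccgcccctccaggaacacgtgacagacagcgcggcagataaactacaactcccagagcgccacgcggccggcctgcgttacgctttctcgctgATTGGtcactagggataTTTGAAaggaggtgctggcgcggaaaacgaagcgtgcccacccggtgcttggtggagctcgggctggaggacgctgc
Ccnb1, chr13:100786437-100786736, minus strand: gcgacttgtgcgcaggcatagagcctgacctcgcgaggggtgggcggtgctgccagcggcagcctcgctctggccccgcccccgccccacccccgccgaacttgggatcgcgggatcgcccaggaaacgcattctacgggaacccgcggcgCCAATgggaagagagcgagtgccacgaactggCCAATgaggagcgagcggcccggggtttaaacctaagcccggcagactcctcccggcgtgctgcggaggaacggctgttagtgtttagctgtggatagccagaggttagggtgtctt
Bub3, chr7:131560120-131560419, plus strand: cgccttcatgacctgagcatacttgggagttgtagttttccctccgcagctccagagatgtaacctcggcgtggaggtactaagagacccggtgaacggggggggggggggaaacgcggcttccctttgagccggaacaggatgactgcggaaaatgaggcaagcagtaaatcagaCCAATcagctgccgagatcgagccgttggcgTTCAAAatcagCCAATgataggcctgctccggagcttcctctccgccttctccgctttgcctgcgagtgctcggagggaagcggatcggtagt
Pttg1, chr11:43425932-43426231, minus strand: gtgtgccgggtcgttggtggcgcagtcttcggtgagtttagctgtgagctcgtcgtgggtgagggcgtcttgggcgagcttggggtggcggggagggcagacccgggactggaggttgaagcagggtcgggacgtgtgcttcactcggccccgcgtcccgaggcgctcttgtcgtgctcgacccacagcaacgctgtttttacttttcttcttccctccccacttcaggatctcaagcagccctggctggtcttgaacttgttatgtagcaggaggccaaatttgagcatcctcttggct
In the Espl1 window TTTGAA starts 27 bases before the gene start and a reversed CCAAT 44 bases before it. The Ccnb1 window has CCAAT at 99 and 67 bases before the start and no TTTGAA or TTCGAA. In the Bub3 window a reversed TTTGAA at 43 bases lies between CCAAT matches at 74 and 32 bases before the start. Another annotated start of Bub3 has a window, not shown, with the same matches at 167, 198 and 156 bases before it. No match to any of the 3 motifs is in the Pttg1 window. That window lies wholly inside the GENCODE gene model of Pttg1 (43420250 to 43426251, minus strand). Bases before the GENCODE start of Pttg1 were therefore not searched. Ndc80, Birc5, Mad2l1, Nusap1, Melk, Nuf2, Ncaph and Anln also had no CCAAT match, and each of these fell.

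Cdk1, the kinase that drives entry into mitosis, and its partners fell in all 7 of 7 cases, with a median log2 fold change of -0.67. Ccnb1, cyclin B1, had 24.3 and 27.6 CPM in siHells, against 51.6 and 51.2 CPM in siControl. The siHells libraries were therefore near 50.5% of the siControl level (log2 fold change -0.99, SE 0.063, edgeR adjusted p = 2.27e-09). Ccnb2, cyclin B2, had 25.2 and 27.6 CPM in siHells and 42.6 and 43.8 CPM in siControl, a log2 fold change of -0.71 (SE 0.061). Cdk1 stood at 39.9 and 39.1 CPM in siHells against 61.9 and 63.6 CPM in siControl, a 1.59-fold fall. None of these 3 genes had overlapping groups, and 39.4% of all genes tested likewise had both siHells libraries below both siControl libraries. Ccna2, cyclin A2, which acts from S phase to early mitosis, fell 1.46-fold, with 48.2 and 50.3 CPM in siHells and 70.8 and 73.2 CPM in siControl. The Cdc25 phosphatases remove the inhibitory phosphates from Cdk1, and Cdc25b and Cdc25c fell 1.58-fold and 1.597-fold. Cdc25c was the gene with the lowest counts of the 44, at 197 and 194 reads in siHells and 326 and 282 in siControl.

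Cks2, a small subunit of cyclin-dependent kinases, was the partner with the smallest change. It had 12.2 and 11.8 CPM in siHells and 16.2 and 13.2 CPM in siControl, so the siControl libraries differed from each other by more than the nearest libraries of the 2 groups did. Its log2 fold change of -0.30 (SE 0.10, edgeR adjusted p = 0.0187) was -0.15 without siControl replicate 1, with an adjusted p of 0.311, and its adjusted p ran from 0.00192 to 0.311 over the alternatives that test against no change. Processed pseudogenes with at least 95% identity over at least 200 bases exist for Ccnb1, Cks2, Mad2l1, Mki67 and Ndc80 in the GENCODE M21 transcripts, so some of their reads could be assigned elsewhere. Of these copies, Ccnb1-ps had 26 and 22 reads in siHells and 64 and 41 in siControl, few beside the 1315 and 1482 reads of Ccnb1 in siHells.

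The kinases of mitotic entry and spindle assembly fell in 3 of 3 cases. Aurka, the kinase of centrosomes and spindle poles, had 15.7 and 17.9 CPM in siHells and 28.2 and 28.8 CPM in siControl (log2 fold change -0.76, SE 0.074, edgeR adjusted p = 3.35e-07). Plk1, which acts from mitotic entry to cytokinesis, had 23.0 and 19.5 CPM in siHells against 34.0 and 32.8 CPM in siControl, a 1.57-fold fall. Melk, a kinase whose transcript marks proliferating cells, fell 1.55-fold. Both siHells libraries lay below both siControl libraries in each of the 3, as they did in 39.4% of all genes tested.

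In the chromosomal passenger complex, which corrects faulty attachments at the centromere, the 4 subunits changed by unequal amounts. Birc5, survivin, had 25.4 and 24.3 CPM in siHells against 40.2 and 41.8 CPM in siControl, a log2 fold change of -0.72 (SE 0.059, edgeR adjusted p = 4.70e-08). Aurkb, the kinase of the complex, had 17.7 and 16.9 CPM in siHells and 22.5 and 22.8 CPM in siControl, a log2 fold change of -0.39 (SE 0.070). Cdca8, borealin, fell by 0.26 on the log2 scale (SE 0.069, adjusted p = 0.00529). Incenp, the scaffold, stood at 84.5 and 79.9 CPM in siHells and 86.0 and 87.2 CPM in siControl, with a log2 fold change of -0.08 (SE 0.043) and an adjusted p of 0.152. Without siHells replicate 1 the value of Incenp was -0.11, with an adjusted p of 0.0378, and over the alternatives that test against no change its adjusted p ran from 0.00837 to 0.590. Counts of Birc5 per count of Incenp, a ratio free of any scaling of libraries, were 0.3004 and 0.304 in siHells against 0.467 and 0.479 in siControl.

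The spindle assembly checkpoint fell in 5 of 5 genes. Bub1b, BubR1, a part of the complex that inhibits APC/C, had 47.8 and 46.7 CPM in siHells against 82.3 and 84.8 CPM in siControl (log2 fold change -0.82, SE 0.046, edgeR adjusted p = 4.53e-10). Bub1, a kinase of the kinetochore, had 23.9 and 26.0 CPM in siHells and 43.2 and 46.2 CPM in siControl, a log2 fold change of -0.84 (SE 0.063). Mad2l1, the protein that holds Cdc20 inactive, had 23.0 and 22.4 CPM in siHells against 36.4 and 36.6 CPM in siControl, a 1.61-fold fall. Ttk, the kinase Mps1 that starts the signal, fell 1.41-fold. Bub3, the adaptor that brings Bub1 and BubR1 to kinetochores, was the exception in size, with 76.0 and 76.6 CPM in siHells and 84.3 and 86.7 CPM in siControl. It fell by 0.16 on the log2 scale (SE 0.042, adjusted p = 0.00341), and it did not pass without siControl replicate 2 (-0.14, adjusted p = 0.0614; range over the alternatives against no change 0.000178 to 0.0614). Reads of Bub1 per read of Bub3 were 0.314 and 0.340 in siHells against 0.512 and 0.533 in siControl.

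The genes that trigger anaphase held both ends of the range. Espl1, separase, the protease that cuts cohesin, had 21.4 and 21.9 CPM in siHells against 54.4 and 53.5 CPM in siControl. This fall of 2.49-fold was the largest of the 44 (log2 fold change -1.32, SE 0.056, edgeR adjusted p = 1.73e-11). Pttg1, securin, the inhibitor that holds separase inactive until anaphase, had 21.3 and 20.0 CPM in siHells against 15.4 and 15.2 CPM in siControl, and was the gene of the 44 that rose (log2 fold change 0.43, SE 0.075, adjusted p = 1.50e-04). Its rise was between 0.36 and 0.48 on the log2 scale under every alternative scaling, test and left-out library, although it did not pass the test against 1.5-fold. Separase and securin therefore moved in opposite directions, and reads of Espl1 per read of Pttg1 were 1.004 and 1.10 in siHells, against 3.54 and 3.51 in siControl. With 2 libraries a group, no exact two-sided permutation p for such a ratio can go below 0.333. Cdc20, the activator of APC/C, had 22.5 and 21.1 CPM in siHells against 35.5 and 38.0 CPM in siControl, a 1.68-fold fall. Ube2c, the ubiquitin-conjugating enzyme of APC/C, fell 1.67-fold, with 23.5 and 24.4 CPM in siHells and 42.6 and 37.4 CPM in siControl. On GRCm38, Espl1 lies on chromosome 15 at 102296266 to 102324357 and Pttg1 on chromosome 11 at 43420250 to 43426251. Exons of Ube2c share 22.8% of their length with Tnnc2 on the other strand, and without strand in the counts such reads could belong to either gene.

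**Figure D4:**
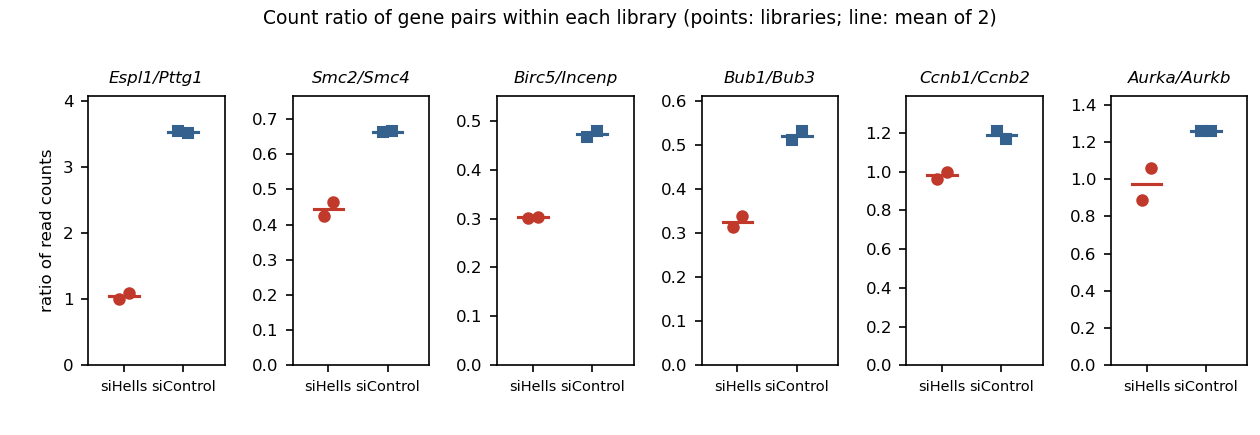
Ratio of read counts of 6 gene pairs within each library (siHells circles left, siControl squares right, line at the mean of 2 libraries, axes from 0). In every pair both siHells libraries lie below both siControl libraries, and the gap is widest for Espl1/Pttg1, at 1.004 and 1.10 in siHells and 3.54 and 3.51 in siControl; the pairs were chosen after the values were seen.

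Centromere and kinetochore genes fell in 7 of 7 cases, with a median log2 fold change of -0.73. Cenpa, the histone H3 variant that marks centromeres, had 18.7 and 18.9 CPM in siHells against 35.8 and 35.3 CPM in siControl (log2 fold change -0.92, SE 0.062, edgeR adjusted p = 4.72e-09). The Ndc80 complex, which grips microtubules, fell in all 4 of its subunits. Ndc80 had 10.1 and 9.73 CPM in siHells and 17.4 and 17.3 CPM in siControl, and Spc25 had 8.82 and 8.85 CPM in siHells and 14.4 and 16.8 CPM in siControl. Their log2 fold changes were -0.80 (SE 0.084) and -0.82 (SE 0.099), beside -0.73 (SE 0.13) for Spc24 and -0.53 (SE 0.088) for Nuf2. Cenpe, a kinetochore motor, and Cenpf, a large kinetochore protein, fell 1.48-fold and 1.43-fold.

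In condensin I, the complex that compacts chromosomes, the subunits did not move as one. Smc2, an ATPase of the core, had 48.3 and 51.4 CPM in siHells against 71.8 and 74.96 CPM in siControl, a log2 fold change of -0.56 (SE 0.049, edgeR adjusted p = 1.18e-07). Ncapd2, Ncapg and Ncaph, the subunits found in condensin I but not in condensin II, had log2 fold changes of -0.54, -0.64 and -0.46 and fell. Smc4, the partner ATPase of Smc2 in both condensins, had 114 and 111 CPM in siHells and 109 and 113 CPM in siControl, with overlapping groups (log2 fold change 0.03, SE 0.039, adjusted p = 0.595). The sign of the Smc4 value turned with upper-quartile scaling, with library totals (-0.05) and without siControl replicate 1 (-0.01), so it has no stable direction here. Reads of Smc2 per read of Smc4 were 0.424 and 0.463 in siHells against 0.661 and 0.666 in siControl.

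Top2a, the topoisomerase that untangles sister chromatids, had 134 and 129 CPM in siHells against 225 and 230 CPM in siControl (log2 fold change -0.79, SE 0.035, edgeR adjusted p = 3.18e-11). Mki67, the Ki-67 antigen that coats mitotic chromosomes and marks cycling cells, had 181 and 180 CPM in siHells against 256 and 261 CPM in siControl, a 1.43-fold fall. These were the genes of the 44 with the most reads. Per kilobase of merged exon, the highest mean levels in siHells were those of Smc4 (21.6 ± 0.402 CPM per kb), Incenp (19.0 ± 0.749) and Mki67 (17.9 ± 0.0757; SD, n = 2), and in siControl those of Ccnb2 (28.2 ± 0.561), Mki67 (25.7 ± 0.340) and Top2a (25.2 ± 0.351). In siHells, Cks2 (17.3 ± 0.424) and Ccnb2 (17.3 ± 1.12) followed Mki67, and the spread of Ccnb2 spanned the level of Mki67, so that the third place was not separated. Mki67 and Top2a in siControl did not differ beyond their spread, and Cdc25c was lowest in both groups, at 0.737 ± 0.00264 CPM per kb in siHells and 1.18 ± 0.0425 in siControl. Merged exons of all annotated transcripts can overstate the length of the expressed one, which lowers the level.

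Spindle proteins and the cytokinesis genes fell in 7 of 7 cases. Hmmr, a microtubule-binding protein that is also a hyaluronan receptor, had 24.5 and 23.9 CPM in siHells against 38.2 and 40.7 CPM in siControl, a log2 fold change of -0.70 (SE 0.061, edgeR adjusted p = 8.77e-08). Nusap1, which bundles spindle microtubules, fell 1.57-fold. Tpx2, the activator of Aurka at the spindle, fell 1.35-fold. Ckap2, also spindle-bound, had 13.6 and 13.1 CPM in siHells and 15.4 and 17.4 CPM in siControl, lower by 0.29 on the log2 scale (edgeR adjusted p = 0.00857, SE 0.086). It did not pass without siControl replicate 2 (-0.20, adjusted p = 0.124; range over the alternatives against no change 0.00197 to 0.124). Ect2, the exchange factor that activates RhoA at the cleavage site, had 14.1 and 16.3 CPM in siHells against 23.5 and 25.1 CPM in siControl, a 1.599-fold fall. Prc1, which bundles the central spindle, and Anln, anillin of the contractile ring, fell 1.37-fold and 1.35-fold. Exons of Prc1 and of Ccna2, Ncapg and Cdc25c overlap those of a gene on the other strand by 11.1%, 12.5%, 13.4% and 12.7% of their length.

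The median absolute difference between replicates over the 44 genes was 0.06 on the log2 scale in siHells and 0.05 in siControl, and the largest was 0.36 in siHells (Spc24) and 0.30 in siControl (Cks2). A chi-square of the counts per gene, with libraries scaled by their totals, averaged 2.97 in siHells and 2.96 in siControl over the 44. Over all genes tested it averaged 6.19 in siHells and 3.41 in siControl. Sampling noise of independent reads alone would give a value near 1. The way reads were counted is not given, so these values cannot tell whether the libraries of a group were made separately.

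Other genes of the mitotic pathway showed where the fall reached. Mitotic kinesins fell in 12 of 12 cases (median log2 fold change -0.63), with Kif20a at -0.75 and Kif2c at -0.75. Among 36 other centromere and kinetochore genes 24 fell and 2 rose, and among 32 other spindle and centrosome genes 20 fell and 2 rose, with medians of -0.56 and -0.35. Spdl1 and Mad1l1, both of the checkpoint's kinetochore machinery, fell by 1.11 (SE 0.077, edgeR adjusted p = 6.42e-09) and 0.93 on the log2 scale. Mis18a, which takes part in loading CENP-A, rose by 0.83 (SE 0.076). The other gene of that list that rose was Mis12 (0.29). Cdca3, a mitotic adaptor of ubiquitin ligases, fell by 0.86, Racgap1, of the central spindle, by 0.67, Dlgap5 by 0.79 and Nek2 by 0.67. The 2 spindle genes that rose were Psrc1 (0.77) and Nek9 (0.14), and Nek9 did not pass without siControl replicate 1 (0.11, adjusted p = 0.0649) or with library totals as the scaling (0.07, adjusted p = 0.0927). Without siHells replicate 2, 4 genes of the spindle list were higher.

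Complexes that also act outside mitosis held genes of both directions, as the kinetochore and spindle lists did. Of 17 APC/C genes 10 fell and 2 rose, with a median of -0.18, where 29.5% of all genes fell and 29.0% rose. Anapc16 rose by 1.12 on the log2 scale (SE 0.055, edgeR adjusted p = 1.05e-10), while Fzr1, the Cdh1 activator of late mitosis and G1, fell by 0.39, Anapc7 by 0.30 and Cdc27 by 0.27. The other gene that rose, Cdc16 (0.13), did not pass without siHells replicate 2 (0.08, adjusted p = 0.255), without siControl replicate 1 (0.16, adjusted p = 0.0645) or without siControl replicate 2 (0.10, adjusted p = 0.247). Nor did Cdc16 pass with upper-quartile scaling, library totals (0.06, adjusted p = 0.382), no low-count filter, limma voom, the replicate block or the DESeq2 test (adjusted p = 0.0981), which leave Anapc16 as the APC/C gene that rose. Of 16 cohesin genes 7 fell and 3 rose, with a median of -0.02, where 58.5% of all genes passed in either direction, so the count of calls was near that of genes at large. Sgo2a, a shugoshin that protects centromeric cohesin, fell by 0.96 and Rad21, the subunit that separase cuts, by 0.31, while Nipbl and Mau2, the loader of cohesin, rose by 0.48 and 0.31. Esco1 rose by 0.17 and did not pass without siControl replicate 1 (0.17, adjusted p = 0.0749) or without siControl replicate 2 (0.18, adjusted p = 0.0565), nor with library totals as the scaling (0.10, adjusted p = 0.132).

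The G subunits of the condensins went in opposite directions. Ncapg2 rose by 0.62 (SE 0.047, edgeR adjusted p = 9.50e-08) while its condensin I counterpart Ncapg fell by 0.64, and reads of Ncapg per read of Ncapg2 were 0.0922 and 0.0804 in siHells against 0.203 and 0.209 in siControl. In the list of condensin II and Smc5/6 genes 2 of 5 rose and 2 fell, the others being Smc5 (0.31), Ncaph2 (-0.14) and Smc6 (-0.13). Ncaph2 did not pass without siControl replicate 2 (-0.12, adjusted p = 0.0791), nor did Smc6 without siControl replicate 1 (-0.14, adjusted p = 0.0648) or without siControl replicate 2 (-0.13, adjusted p = 0.0714). The count of lower genes in this list was therefore 1 without siControl replicate 1 and 0 without siControl replicate 2.

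**Figure D5:**
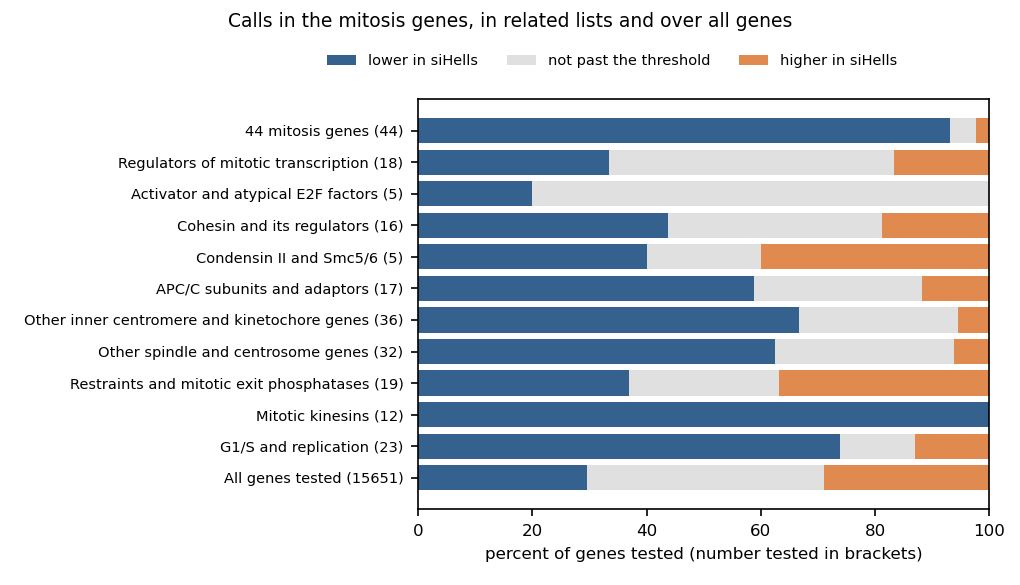
Percent of genes tested that were lower in siHells, not past the threshold, or higher in siHells (adjusted p of 0.05), for the 44 mitosis genes, 10 related lists and all 15651 genes tested. The mitosis genes (41 of 44 lower) and the mitotic kinesins (12 of 12 lower) have the largest lower shares, against 29.5% over all genes.

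Of 18 regulators of mitotic transcription 6 fell and 3 rose, with a median of -0.01. Over all genes 29.5% fell and 29.0% rose, so these counts do not set the list apart, and the genes that passed are given one by one. Foxm1, a transcription factor of G2 and M phase genes, fell by 0.47 (SE 0.067, edgeR adjusted p = 2.04e-05) and the pocket protein gene Rbl1 by 0.47. The others that fell were Mybl1 (-0.93), Mybl2 (-0.38), Nfyc (-0.37) and Lin9 (-0.36). Rb1, the retinoblastoma protein, rose by 0.66 (SE 0.052, adjusted p = 3.70e-08) and Rbl2, the pocket protein p130 of resting cells, by 0.44. E2f5 rose by 0.33 and did not pass without siControl replicate 1 (0.28, adjusted p = 0.0764). Of 5 activator and atypical E2F genes 1 fell, E2f8 (-0.33), which did not pass without siControl replicate 2 (-0.22, adjusted p = 0.138), and E2f1, E2f2 and E2f3 had values of -0.12, -0.11 and -0.07 that did not pass. E2f1 passed with upper-quartile scaling (-0.15, adjusted p = 0.0411) and with library totals (-0.19, adjusted p = 0.0114).

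Of 19 restraints of the cycle and phosphatases of mitotic exit 7 were lower and 7 higher, near the 29.5% and 29.0% over all genes. With library totals as the scaling 8 were lower and 4 higher, and without siControl replicate 1 7 were lower and 4 higher. Cdkn1a, the inhibitor p21, rose by 0.57 (SE 0.035, edgeR adjusted p = 1.48e-09). Of the other Cdkn genes in the list, Cdkn1b rose by 0.465, while Cdkn1c fell by 1.33, Cdkn3 by 0.50 and Cdkn2c by 0.28. Pkmyt1, which adds inhibitory phosphates to Cdk1, fell by 0.80, the phosphatase gene Cdc14b by 0.86 and Arpp19, an inhibitor of the phosphatase PP2A, by 0.49. Cdc14a rose by 0.74. Among 23 genes of G1/S and DNA replication 17 fell and 3 rose, with a median of -0.41. Mcm5 of the replicative helicase fell by 0.69 and Rrm1, a ribonucleotide reductase subunit, by 0.55. The 3 that rose were the D-type cyclins Ccnd2 (0.90), Ccnd3 (0.86) and Ccnd1 (0.31), which act in G1.

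Markers of other cell types that a marrow culture can hold are given because some moved with the groups. Markers of haematopoietic progenitors, 10 of 10 in the table, summed to 51.6 and 48.9 CPM in siHells and 52.3 and 49.3 CPM in siControl, with 2 higher and 2 lower. Stromal markers, 8 of 9 in the table, summed to 1804 and 1775 CPM in siHells against 1002 and 1026 CPM in siControl, with 7 higher and 1 lower. The 4 megakaryocyte markers summed to 164 and 166 CPM in siHells against 53.7 and 49.3 CPM in siControl, of which Pf4 made 154 and 156 in siHells and 49.7 and 46.0 in siControl. Neutrophil markers, 7 of 8, summed to 380 and 358 CPM in siHells and 450 and 459 CPM in siControl. Of T and NK cell markers 2 of 8 were in the table, with 27.4 and 27.9 CPM in siHells and 75.7 and 70.9 CPM in siControl, nearly all from Cd4, which macrophage-lineage cells can also express. Dendritic cell markers (3 of 6) had 8.19 and 8.09 CPM in siHells and 4.38 and 4.74 CPM in siControl, endothelial markers (4 of 4) 13.8 and 12.8 CPM in siHells and 12.5 and 11.9 CPM in siControl, and B cell (1 of 6), erythroid (1 of 8) and mast cell (2 of 5) markers were under 5 CPM in every library. The part of these cells in the fall of the mitosis genes was not tested.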

How the data were processed

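RNA-seq of 2 siHells and 2 siControl libraries was used. The table the authors deposited holds raw read counts by gene symbol. Per the submitters' processing notes, the tools were HISAT2 2.1.0, StringTie 2.1.3b, Trimmomatic 0.38, FastQC and edgeR, with build mm10. The sources used here do not give their roles, the annotation or the strand setting. Per the labels' protocols, both SMARTer and TruSeq Stranded kits are named, so whether counts use strand is unknown. The lowest count was 1, and genes with 0 reads in a library were not analysed here.

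Genes were kept by filterByExpr (minimum count 10, minimum total 15), which left 15651 of 17194. Library sizes were TMM-scaled and groups compared with the edgeR 4.0.16 quasi-likelihood test (R 4.3.3; robust, group as the only term, 2 residual degrees of freedom). Benjamini-Hochberg adjustment covered every gene tested, and calls needed an adjusted p under 0.05. The common coefficient of variation was 0.0418. DESeq2 1.42.0, limma 3.58.1 voom, other scalings and filters, a replicate term and left-out libraries were alternatives. The test was also run on simulated counts with few changed genes and a single dispersion. In the data 58.5% of genes passed, so that run cannot give the error rate here. Gene models came from GENCODE M21 and promoters from RefSeq (GRCm38.p6). The genes and lists were chosen with earlier results of these data known. Named genes were Hells, the 44, and up to 4 genes of each list with the smallest p plus any that passed against the list's main direction. Outside this rule, further genes that passed were named for the regulators of mitotic transcription and for the restraints of the cycle. The count ratios were chosen after the values were seen. The values of 1 gene that this rule names are not reported here.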

Additional observations from a re-analysis of the deposited data

How the results depend on the processing

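Under other scalings, low-count filters and tests of no change, the counts of mitosis genes, of all genes and of the 183 genes of the other lists together (106 lower, 24 higher) stayed within 1.5 times those with TMM. Counts of single lists moved further: restraints higher went to 4 with library totals, E2F genes lower to 2 with library totals and upper-quartile scaling, spindle genes higher to 1 with library totals, and APC/C genes higher to 1 in the settings that lose Cdc16. At an adjusted p of 0.01, 6 APC/C genes and 1 gene of the condensin II list were lower. Tested against 1.5-fold, 12 mitosis genes were lower and 0 higher, 1096 of all genes were lower and 1261 higher, and 17 genes of the other lists were lower and 4 higher; a stricter null makes fewer calls by construction. The summed level in siHells over siControl was 0.686, and 0.671 with upper-quartile scaling and 0.652 with library totals. Leaving out each library in turn gave 0.679 to 0.693 for this ratio, 39 to 42 mitosis genes lower and 1 to 1 higher, 3999 to 4442 of all genes lower and 3796 to 4442 higher, and 96 to 103 genes of the other lists lower and 19 to 24 higher. A group then has 1 library, assumed to vary like the other group. Smc4 turned sign from 0.026 to -0.0067 with upper-quartile scaling and -0.0474 with library totals, and ran from -0.0078 (without siControl replicate 1) to 0.0589 over left-out libraries. The log2 fold change of E2f3 was -0.0716, ran from -0.1412 to 3e-04 (without siHells replicate 1) over left-out libraries, and was -0.1451 with library totals. The cause was not tested. Incenp passed the threshold with upper-quartile scaling (-0.11, adjusted p = 0.0455) and library totals (-0.15, adjusted p = 0.00837). The replicate 2 minus 1 deviations of the 2 groups had a Pearson r over genes of 0.0501. Genes with few reads weigh as much as others in this r, so it cannot settle whether replicate numbers pair the libraries. With the replicate block, 41 mitosis genes were lower and 1 higher, 4586 of all genes lower and 4502 higher, and 106 genes of the other lists lower and 23 higher; Cdc16 lost its call (0.13, adjusted p = 0.0647). With 2 libraries a group and counts down to 194 reads, small changes such as that of Cks2 are the least certain.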
